A study of Mus musculus with 24 samples.

Results

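Mcpt8, Prss34, Cpa3, Fcer1a, Ms4a2 and Hdc are genes of basophils and mast cells, and they are described here in mouse acute myeloid leukaemia. They are 6 of the 23361 gene rows of the deposited expression table, taken by their symbols, and all 6 symbols were found in it. RNA was sequenced from primary leukaemia cells of the spleen, in 24 libraries of 5 groups. All groups share one genotype, NRASG12V/Mll-AF9 (an active form of the small GTPase NRAS together with the Mll-AF9 fusion), and one background, the F1 cross (FVB/n X C57/BL/6J). The sort used the myeloid integrin Mac-1, the receptor Kit and the stem cell surface protein Sca-1. MacLowKit+Sca1+ (here Kit+Sca1+) had 4 libraries. MacLowKit+Sca1- (here Kit+Sca1-), MacLowKit-Sca1- (here Kit-Sca1-), MacHigh and unsorted cells had 5 libraries each. The labels give no ages, no treatment, no promoter behind the transgene and no healthy cells for comparison, and they do not say which libraries came from separate animals. The p-values therefore measure the spread between these libraries, which may be technical.

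Basophils and mast cells are granulocytes that carry the high-affinity IgE receptor (FceRI), whose crosslinking by antigen releases histamine and granule proteases. The receptor has an IgE-binding alpha chain (Fcer1a), a signal-amplifying beta chain (Ms4a2) and a gamma chain (Fcer1g) that many other myeloid cells also use. Mcpt8 and Prss34 encode the granule serine proteases mMCP-8 and mMCP-11, which in the mouse are chiefly basophil products. Cpa3 encodes the granule carboxypeptidase of mast cells and basophils, and Hdc encodes histidine decarboxylase, the enzyme that makes histamine and that immature myeloid cells of the mouse also express. In the mouse the transcription factor Gata2 acts in both lineages, interleukin-3 drives basophil production, and Kit signalling maintains mast cells. In bulk samples such as these, fewer cells of a type and less RNA per cell cannot be told apart.

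The members lie on 6 chromosomes of the mouse genome (RefSeq genes of GRCm38.p6, the assembly behind mm10). Mcpt8 spans chr14:56082163-56085499, Prss34 chr17:25298394-25300168, Cpa3 chr3:20215616-20242209, Fcer1a chr1:173221269-173227232, Ms4a2 chr19:11615517-11623790 and Hdc chr2:126593659-126624025. All 6 had an entry in the RefSeq promoter table, and the 250 bases before the annotated transcript start were searched for words of GATA factors. The start used is that of the tabled transcript, which can lie inside the outer bounds of the gene. The windows of the 3 protease genes and of Ms4a2 are shown because these 4 genes, among the members that could be tested, had their highest mean in Kit-Sca1- cells. Each runs 5′ to 3′ on the strand of the gene, and capitals mark GATA with an A or T before it and an A or G after it, read on either strand.
Mcpt8 (chr14:56085198-56085447, minus strand): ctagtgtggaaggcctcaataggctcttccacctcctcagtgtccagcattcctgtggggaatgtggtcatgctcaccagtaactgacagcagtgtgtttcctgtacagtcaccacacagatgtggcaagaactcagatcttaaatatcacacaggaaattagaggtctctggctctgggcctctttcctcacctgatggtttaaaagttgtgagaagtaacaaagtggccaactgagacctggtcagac
Prss34 (chr17:25298144-25298393, plus strand): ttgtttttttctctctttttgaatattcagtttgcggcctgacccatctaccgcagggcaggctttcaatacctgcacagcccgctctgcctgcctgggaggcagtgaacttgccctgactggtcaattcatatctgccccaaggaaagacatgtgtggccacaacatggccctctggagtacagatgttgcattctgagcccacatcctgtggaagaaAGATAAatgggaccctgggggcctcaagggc
Cpa3 (chr3:20242182-20242431, minus strand): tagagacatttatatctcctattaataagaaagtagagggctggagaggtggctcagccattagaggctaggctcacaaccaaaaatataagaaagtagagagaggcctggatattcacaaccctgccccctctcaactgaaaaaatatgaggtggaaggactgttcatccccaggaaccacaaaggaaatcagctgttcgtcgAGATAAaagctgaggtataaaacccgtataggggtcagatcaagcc
Ms4a2 (chr19:11623720-11623969, minus strand): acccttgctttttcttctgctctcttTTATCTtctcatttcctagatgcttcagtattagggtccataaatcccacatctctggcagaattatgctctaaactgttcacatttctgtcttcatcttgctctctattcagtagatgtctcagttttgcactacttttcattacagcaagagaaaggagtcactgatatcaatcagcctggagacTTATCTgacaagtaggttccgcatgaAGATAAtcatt
Prss34 held 1 such word, 31 to 26 bases before the start, and Cpa3 held 1 at 46 to 41 bases. Ms4a2 held 3, the nearest at 11 to 6 bases, Fcer1a and Hdc held 1 each, and Mcpt8 held none. At least 1 such word stood in 5 of the 6 member windows and in 26.5% of 32851 promoter windows of the same length. The RUNX word TGTGGT, on either strand, stood in 3 of the 6 (Mcpt8, Cpa3 and Fcer1a) and in 14.0% of all windows. The word TATAAA stood in 2 of the 6 (Cpa3 and Fcer1a) and in 12.4%. No match of one kind of word overlapped a match of another in the member windows. A match here is a run of letters and not a shown binding site.

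Values are FPKM, fragments per kilobase of transcript scaled for the size of the library, so levels can be set side by side between genes. A value of 0.001, which 206317 of the table's values hold, was taken to stand for 0: no value is 0 and 216 lie below 0.001. Read counts were not used, so absolute depth is unknown. Low values put the depth of the libraries at 0.801 to 1.97 times that of the median library, and 10177 to 11124 rows per library reached 1 FPKM. The genes of the sort markers were separated between the gates. Itgam (Mac-1) ran from 582 to 693 FPKM in MacHigh and from 39.2 to 422 FPKM over the Mac-low libraries. Kit was at 26.8 FPKM or more in every Kit+ library and at 0.895 FPKM or less in every Kit-Sca1- library. Ly6a (Sca-1) ran from 5.64 to 9.75 FPKM in Kit+Sca1+ and reached at most 3.46 FPKM elsewhere. In 35 rows all Kit+Sca1- libraries were listed at 0.001 although some other group had at least 5 FPKM throughout, and no member was among these rows. Fcer1a, listed at 0.001 in all Kit+Sca1- libraries, stayed under 1 FPKM in every library and so could not have met that condition. Tests were moderated limma tests of log2(FPKM + 1) over all 24 libraries, on the 11599 rows that reached 1 FPKM in 4 or more libraries, and a gene was called at a Benjamini-Hochberg adjusted p under 0.05. Of the members, 5 passed this filter and Fcer1a did not. Prss34 reached at most 0.421 FPKM over both Kit+ groups, so it passed only through the other groups. Ms4a2 reached at most 1.07 FPKM in Kit+Sca1+ and passed mostly through the other groups. Counts of members called lower in a Kit+ group include these genes and are no support for a shared direction.

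Mcpt8 was the most abundant of the proteases and peaked in Kit-Sca1- cells. Its FPKM was 20.7, 16.1, 6.74 and 6.71 in the 4 Kit+Sca1+ libraries and 22.9, 4.79, 16.8, 26.1 and 8.16 in the 5 Kit+Sca1- libraries. It was 88.8, 59.2, 32.4, 65.2 and 47.3 in Kit-Sca1-, 35.2, 21.9, 17.9, 29.9 and 22.6 in MacHigh, and 24.8, 18.1, 23.9, 40.3 and 25.9 in unsorted cells. Every Kit-Sca1- library was above every library of both Kit+ groups, while its lowest library lay within the range of MacHigh and of unsorted cells. The mean was 12.6 ± 7.01 FPKM in Kit+Sca1+ (SD, n = 4), 15.7 ± 9.17 FPKM in Kit+Sca1-, 58.6 ± 21.1 FPKM in Kit-Sca1-, 25.5 ± 6.93 FPKM in MacHigh and 26.6 ± 8.22 FPKM in unsorted cells (n = 5 each). The Kit-Sca1- mean exceeded that of 93.0% of all rows in that group. MacHigh and unsorted cells, next in the order, did not differ beyond their spread (log2 difference of MacHigh against unsorted -0.05 ± 0.38, SE, limma adjusted p = 0.925), nor did Kit+Sca1+ and Kit+Sca1- (-0.23 ± 0.40, adjusted p = 0.645).

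Of the members that passed the filter, Prss34 had the widest span of group means when taken as a ratio, though not in FPKM. It was near the bottom of the scale in both Kit+ groups. Its FPKM was 0.421, 0.117, 0.001 and 0.418 in Kit+Sca1+ and 0.288, 0.129, 0.156, 0.339 and 0.398 in Kit+Sca1-. It was 25.6, 13.9, 7.88, 24.4 and 18.5 in Kit-Sca1-, 5.84, 2.33, 3.12, 5.63 and 2.95 in MacHigh, and 3.81, 3.50, 5.42, 5.44 and 8.15 in unsorted cells. The 3 levels stood apart: both Kit+ groups below every MacHigh and unsorted library, and Kit-Sca1- above every MacHigh library, with 1 Kit-Sca1- library under the highest unsorted one. The mean was 18.1 ± 7.38 FPKM in Kit-Sca1-, 3.97 ± 1.63 in MacHigh and 5.26 ± 1.84 in unsorted cells. The last pair did not differ beyond its spread (log2 difference of MacHigh against unsorted -0.35 ± 0.26, limma adjusted p = 0.292), and it was called lower in MacHigh in a fit with the start of the sample name as a block (-0.48, adjusted p = 0.0442). Kit+Sca1+ and Kit+Sca1- differed by -0.04 ± 0.27 on the log2 scale (adjusted p = 0.921, 95% interval -0.60 to 0.53).

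Cpa3 varied less than the other proteases and was again highest in Kit-Sca1- cells. Its FPKM was 3.41, 4.81, 1.57 and 1.07 in Kit+Sca1+ and 3.40, 0.627, 1.86, 3.49 and 1.75 in Kit+Sca1-. It was 8.54, 5.77, 6.78, 4.98 and 6.38 in Kit-Sca1-, 2.20, 2.84, 0.800, 2.12 and 1.94 in MacHigh, and 3.47, 3.87, 2.50, 3.65 and 4.07 in unsorted cells. No library of another group reached the lowest Kit-Sca1- library, and the other 3 sorted groups overlapped each other. The mean was 2.71 ± 1.72 FPKM in Kit+Sca1+, 2.22 ± 1.21 FPKM in Kit+Sca1-, 6.49 ± 1.33 FPKM in Kit-Sca1-, 1.98 ± 0.742 FPKM in MacHigh and 3.51 ± 0.611 FPKM in unsorted cells. Among the sorted groups other than Kit-Sca1-, the 3 differences lay between 0.06 and 0.24 in size on the log2 scale and none was called (limma adjusted p = 0.522 for Kit+Sca1+ against MacHigh, 0.854 for Kit+Sca1- against MacHigh and 0.63 for Kit+Sca1+ against Kit+Sca1-).

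The receptor genes were low throughout. Fcer1a stayed under 1 FPKM in all 24 libraries. It was listed at 0.058, 0.072, 0.001 and 0.001 FPKM in Kit+Sca1+ and at 0.001 in all 5 Kit+Sca1- libraries. It was at 0.958, 0.793, 0.190, 0.910 and 0.283 in Kit-Sca1-, 0.428, 0.001, 0.091, 0.291 and 0.096 in MacHigh, and 0.075, 0.067, 0.087, 0.544 and 0.242 in unsorted cells. The Kit-Sca1- libraries were all above both Kit+ groups and overlapped MacHigh and unsorted cells. Fcer1a could be tested only without the filter on low values, over 18324 rows. In that fit Kit-Sca1- was called higher than MacHigh (log2 difference 0.44 ± 0.13, limma adjusted p = 0.0101), in a comparison where 16% of rows were called higher, and higher than unsorted cells (0.42 ± 0.13, adjusted p = 0.0389, 3.69% of rows). Both Kit+ groups were called lower than Kit-Sca1- (adjusted p = 0.00109 for Kit+Sca1+, 15.3% of rows, and 0.000302 for Kit+Sca1-, 17.7% of rows). Exact two-sided permutation tests of the same values gave p = 0.0635, 0.0635, 0.0238 and 0.00794 for these 4 comparisons. No fold is given against Kit+Sca1-, where a listing at 0.001 also befell 35 rows that were abundant elsewhere, and whether Fcer1a was affected in the same way was not tested.

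Ms4a2, the beta chain, had the order of means of the alpha chain over the other 4 groups and departed from it in Kit+Sca1-. The departure rests on the listing of Fcer1a at 0.001 there, and whether that was a true low value was not tested. Its FPKM was 0.794, 0.672, 1.07 and 0.820 in Kit+Sca1+ and 4.00, 4.53, 2.70, 4.11 and 3.71 in Kit+Sca1-. It was 15.9, 9.41, 2.37, 9.22 and 4.73 in Kit-Sca1-, 2.25, 0.816, 1.27, 2.10 and 0.696 in MacHigh, and 3.95, 2.78, 4.19, 4.81 and 3.54 in unsorted cells. Kit+Sca1- libraries, in which Fcer1a was listed at 0.001, were all above every Kit+Sca1+ and MacHigh library for Ms4a2. Kit-Sca1- cells spread the widest, with 1 library under the Kit+Sca1- range and 4 above it. The mean was 0.838 ± 0.166 FPKM in Kit+Sca1+, 3.81 ± 0.688 FPKM in Kit+Sca1-, 8.32 ± 5.18 FPKM in Kit-Sca1-, 1.43 ± 0.718 FPKM in MacHigh and 3.85 ± 0.755 FPKM in unsorted cells. Kit+Sca1- and unsorted cells did not differ beyond their spread (log2 difference -0.01 ± 0.29, limma adjusted p = 0.981), nor did Kit+Sca1+ and MacHigh (-0.35 ± 0.30, adjusted p = 0.361).

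Hdc was the only member with its highest mean outside Kit-Sca1- cells. Its FPKM was 7.03, 10.4, 33.3 and 41.5 in Kit+Sca1+ and 40.3, 104, 97.5, 34.7 and 105 in Kit+Sca1-. It was 58.4, 58.7, 75.3, 39.7 and 57.9 in Kit-Sca1-, 30.2, 48.9, 35.2, 32.8 and 28.0 in MacHigh, and 43.5, 62.1, 46.1, 30.4 and 50.4 in unsorted cells. The Kit+Sca1- libraries fell into 3 at 97.5 FPKM or more and 2 at 40.3 FPKM or less, and the Kit+Sca1+ libraries into a low and a high pair. The mean was 23.1 ± 17.0 FPKM in Kit+Sca1+, 76.4 ± 35.7 FPKM in Kit+Sca1-, 58.0 ± 12.6 FPKM in Kit-Sca1-, 35.0 ± 8.21 FPKM in MacHigh and 46.5 ± 11.5 FPKM in unsorted cells. The Kit+Sca1- mean exceeded that of 95.1% of rows in its group. Kit+Sca1- and Kit-Sca1-, the top pair, did not differ beyond their spread (log2 difference 0.26 ± 0.38, limma adjusted p = 0.596, 95% interval -0.53 to 1.05).

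**Figure D1:**
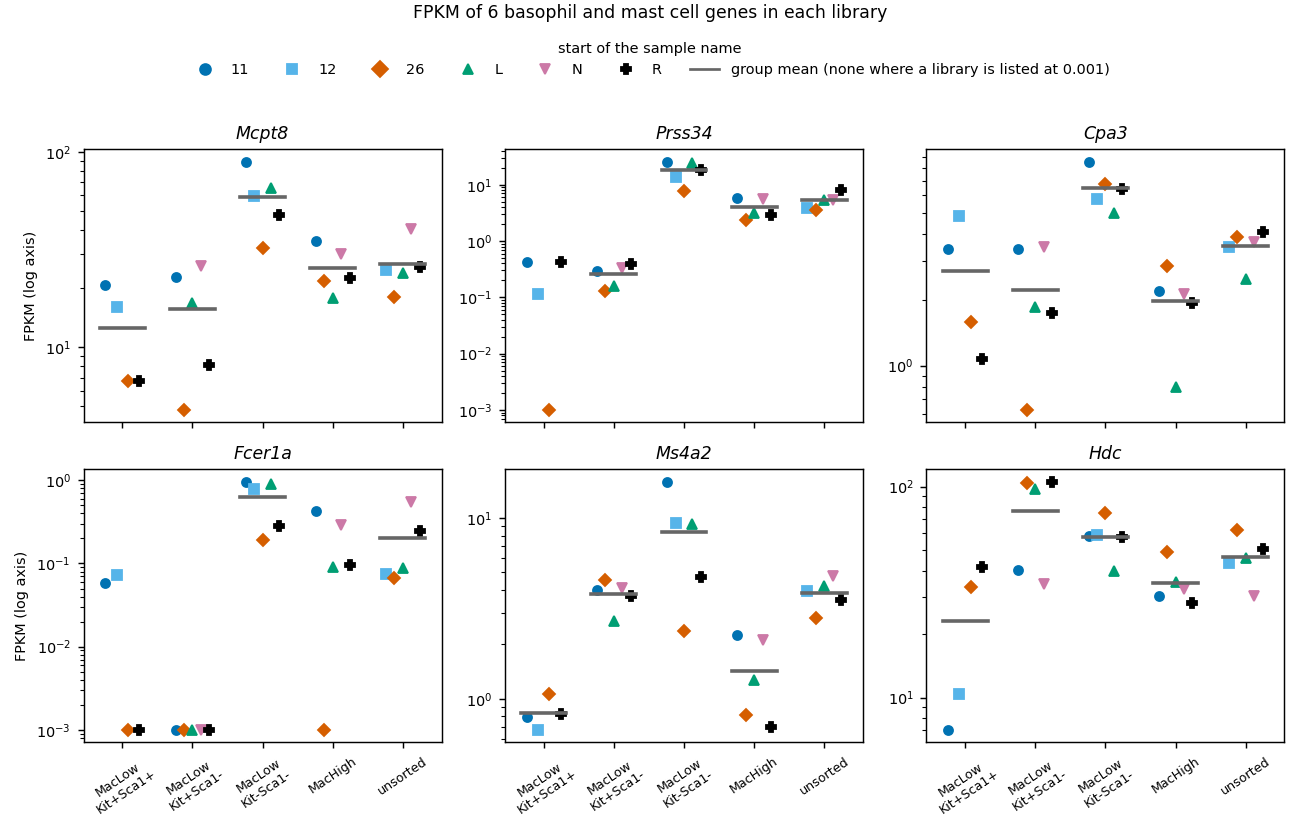
FPKM of the 6 genes (log axis) in each of the 24 libraries, by group, with symbols for the start of the sample name and grey lines for group means; no line is drawn where a library is listed at 0.001. Mcpt8, Prss34, Cpa3, Fcer1a and Ms4a2 have their highest mean in MacLowKit-Sca1-, and Hdc has its highest mean in MacLowKit+Sca1-.

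Across the 4 sorted groups the moderated F test called all 5 members tested, with adjusted p from 1.88e-11 for Prss34 to 0.00105 for Hdc. This is a common result in the series, since 83.2% of all rows were called. The pairs of groups show more, and the plot of log2 differences between sorted groups gives all 6 of them.

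Kit-Sca1- against MacHigh compares the Mac-low cells without Kit and Sca-1 with the Mac-high cells. The proteases and the IgE receptor beta chain were higher in Kit-Sca1-: Mcpt8 by 1.13 ± 0.38 on the log2 scale (SE, limma adjusted p = 0.0152), Prss34 by 1.89 ± 0.26 (3.37e-06), Cpa3 by 1.35 ± 0.27 (0.000272) and Ms4a2 by 1.79 ± 0.29 (2.54e-05). These are 2.30, 4.55, 3.28 and 5.83 times the MacHigh mean FPKM. All 4 were higher in each of the 4 sample-name starts that both groups share. All 5 differences were above 0 and 4 were called, in a comparison that called 24.5% of rows higher and 26.2% lower. Hdc was 0.71 ± 0.38 higher and not called (adjusted p = 0.125, 95% interval -0.08 to 1.50), and an exact permutation test of the same values gave p = 0.0159. Hdc was called in a limma fit of only the groups compared (adjusted p = 0.0062) and in one with library weights (0.0486). The median over the 5 members was 1.36, beside -0.02 over all rows.

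Kit+Sca1+ against Kit-Sca1- and Kit+Sca1- against Kit-Sca1- both set a Kit+ group beside the Kit-negative Mac-low cells, and they share the Kit-Sca1- libraries. In Kit+Sca1+ all 5 members tested were lower: Mcpt8 by -2.21 ± 0.40 (limma adjusted p = 9.62e-05), Prss34 by -3.85 ± 0.27 (1.29e-10), Cpa3 by -1.11 ± 0.29 (0.00313), Ms4a2 by -2.14 ± 0.30 (5.05e-06) and Hdc by -1.60 ± 0.40 (0.00261). The share of all rows called lower there was 23.3%, and 21.8% were higher. The mean FPKM of Mcpt8 in Kit+Sca1+ was 0.214 times that in Kit-Sca1-, and that of Ms4a2 was 0.101 times. In Kit+Sca1- 4 of 5 members were lower, where 26.3% of rows were and 24% were higher: Mcpt8 by -1.98 ± 0.38 (adjusted p = 0.000146), Prss34 by -3.82 ± 0.26 (6.85e-11), Cpa3 by -1.29 ± 0.27 (0.000418) and Ms4a2 by -0.76 ± 0.29 (0.0307). The Prss34 mean there was 0.0145 times the Kit-Sca1- mean. The Ms4a2 call was the weakest: its groups overlapped, it was lower in 3 of 4 shared name starts, and its adjusted p was 0.121 without Kit-Sca1- replicate 1, 0.0767 without replicate 2, 0.0749 without replicate 4 and 0.0706 without Kit+Sca1- replicate 3. The median over the 5 members was -2.14 in Kit+Sca1+ and -1.29 in Kit+Sca1-, beside -0.03 and -0.02 over all rows. Prss34 passed the filter only through groups other than these Kit+ groups, and Ms4a2 mostly through groups other than Kit+Sca1+. The counts and medians here are therefore no support for a shared direction.

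Kit+Sca1+ against Kit+Sca1- separates Kit+ cells by Sca-1. Ms4a2 was lower in Kit+Sca1+ by -1.38 ± 0.30 (limma adjusted p = 0.000528) and Hdc by -1.86 ± 0.40 (0.000449), each in 3 of 3 shared name starts. These mean FPKM were 0.220 and 0.302 times those in Kit+Sca1-. The 3 proteases were not called, with log2 differences of -0.23 ± 0.40 for Mcpt8 (95% interval -1.06 to 0.59), -0.04 ± 0.27 for Prss34 and 0.18 ± 0.29 for Cpa3 (-0.42 to 0.77). So 2 of 5 members were called, both lower, where 28.5% of rows were called lower and 26.8% higher.

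Against MacHigh, both Kit+ groups were lower for Prss34, neither was called for Cpa3, and Kit+Sca1- was higher for Ms4a2 and Hdc. Prss34 was lower by -1.96 ± 0.27 in Kit+Sca1+ (limma adjusted p = 3.6e-06) and by -1.92 ± 0.26 in Kit+Sca1- (8.54e-07), in every shared name start. Mcpt8 was lower in Kit+Sca1+ by -1.08 ± 0.40 (adjusted p = 0.0305), a call that was lost when any of 4 libraries was left out (adjusted p = 0.0705 without MacHigh replicate 1, 0.0598 without MacHigh replicate 4, 0.107 without Kit+Sca1+ replicate 3 and 0.112 without Kit+Sca1+ replicate 4). Its difference in Kit+Sca1- was -0.85 ± 0.38 (0.0545), and it was lower there in 5 of 5 shared name starts. Kit+Sca1- was higher than MacHigh for Ms4a2 (1.03 ± 0.29, 0.00354) and for Hdc (0.97 ± 0.38, 0.0301), the second with adjusted p between 0.0504 and 0.0807 when MacHigh replicate 1, 4 or 5 or Kit+Sca1- replicate 2, 3 or 5 was left out. That makes 2 of 5 members lower in Kit+Sca1+, where 22.4% of rows were lower and 23.6% higher. In Kit+Sca1- it makes 2 higher and 1 lower, where 32.5% were higher and 30.3% lower.

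**Figure D2:**
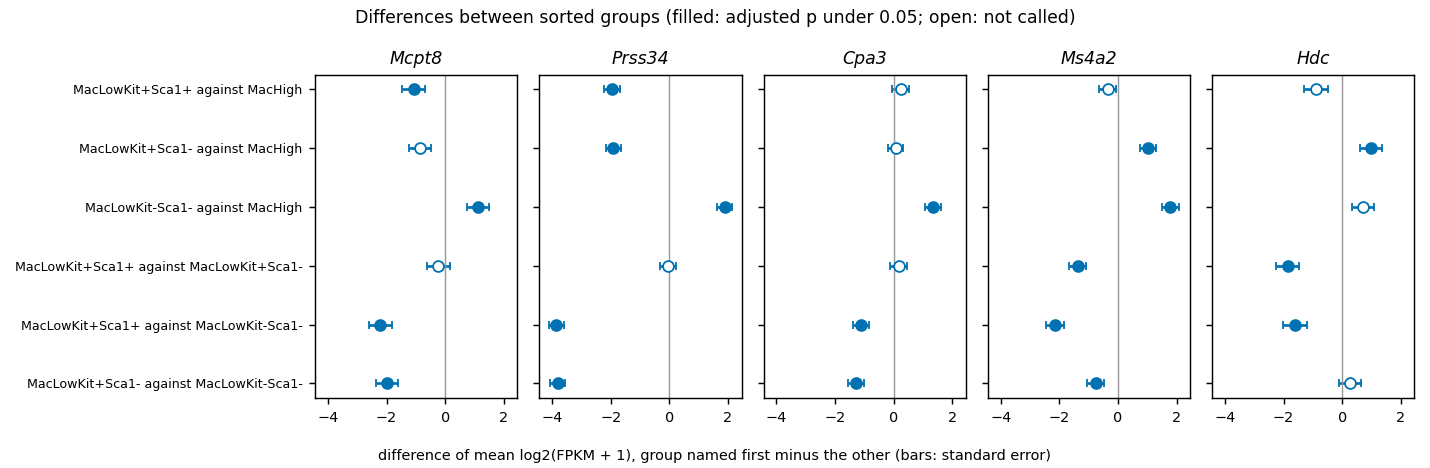
Differences in mean log2(FPKM + 1) between sorted groups for the 5 members tested, the group named first minus the other, with bars for the standard error; filled points have a limma adjusted p under 0.05. In the 2 rows set against MacLowKit-Sca1-, Prss34 lies at -3.85 and -3.82, and in the row of MacLowKit-Sca1- against MacHigh Ms4a2 lies at 1.79.

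Unsorted cells give the level in the whole leukaemic spleen sample. Kit-Sca1- was called higher for Prss34 alone (1.55 ± 0.26, limma adjusted p = 0.000215), 1 of 5 members, where 5.67% of rows were higher and 8.91% lower. Mcpt8 was 1.08 ± 0.38 higher (0.0554) and Cpa3 0.73 ± 0.27 higher (0.0763), each in 4 of 4 shared name starts. With the name start as a block both were called, Mcpt8 at 1.07 (0.00202) and Cpa3 at 0.70 (0.0479), which made 3 of 5, in a fit that called 13.8% of rows higher. Without unsorted replicate 4, 2 members were called, and 3 were without Kit-Sca1- replicate 3. MacHigh was lower for Ms4a2 (-1.04 ± 0.29, 0.00687), 1 of 5 members, where 21.3% of rows were higher and 18.2% lower. With the block Prss34 and Cpa3 (-0.66, adjusted p = 0.0357) were also lower in MacHigh, where 23.4% of rows were.

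Kit+Sca1- was lower than unsorted cells for Prss34 (-2.27 ± 0.26, limma adjusted p = 2.05e-07), 1 of 5 members, where 23.8% of rows were lower and 23.6% higher. Mcpt8 was -0.90 ± 0.38 (0.054) there and lower in 4 of 4 shared name starts, and 2 members were called without unsorted replicate 2 and 3 without Kit+Sca1- replicate 1 or 4. Kit+Sca1+ was lower for 4 of 5 members, where 15.7% of rows were lower and 17.2% higher. These were Prss34 (-2.31 ± 0.27, 6.66e-07), Ms4a2 (-1.39 ± 0.30, 0.00104), Hdc (-1.28 ± 0.40, 0.0174) and Mcpt8 (-1.13 ± 0.40, 0.032). Prss34 and Ms4a2 passed the filter only or mostly through other groups, so the count of 4 is no support for a shared direction. The Mcpt8 call was lost without unsorted replicate 4 (0.0797) or 5 (0.0511) or Kit+Sca1+ replicate 3 (0.113) or 4 (0.114). The Hdc call was lost without Kit+Sca1+ replicate 1 (0.102) or 2 (0.082).

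Library names start with 1 of 6 marks (11, 12, 26, L, N or R) that recur across groups, and the labels do not say what they stand for. Prss34 was lowest in the library named 26 in 5 of 5 groups. Mcpt8 was lowest in that library in 3 of 5 groups, and highest in the library named 11 in 3 of the 4 groups that have one. Hdc was highest in the library named 26 in 3 of 5 groups and in the one named R in the other 2. With all groups pooled, Mcpt8 and Hdc thus tended to run in opposite directions within groups. The opposition was not complete in each group. In MacHigh the library named R had the lowest Hdc (28.0 FPKM) with Mcpt8 in the middle of its group (22.6 FPKM). The Kit+ groups spread the widest in both genes. Their SD of Hdc was 73.6% and 46.7% of the mean, and at most 24.7% elsewhere. No correlation was taken per group. Over the deviations of the 24 libraries from their group means, Pearson's r was -0.80 and Spearman's rho -0.78, and r was -0.79 without the 2 libraries farthest from the median in Mcpt8 deviation. Over the levels themselves, with the group differences left in, r was -0.09. Within groups Mcpt8 and Cpa3 deviated together (r = 0.73, rho = 0.67), while Cpa3 and Hdc deviated apart (-0.62 and -0.56). For Prss34 and Ms4a2 r was 0.70 but rho 0.47, and r was 0.51 without the 2 libraries farthest in Prss34 deviation. Leaving out 2 libraries by the gene named first gave 0.61 for Mcpt8 and Cpa3 and -0.50 for Cpa3 and Hdc. Mcpt8 and Prss34 had r and rho of 0.47 each. Libraries of 1 name start share whatever the mark stands for, so these values are descriptions without a p. In Kit+Sca1+ the libraries named 11 and 12 had Mcpt8 at 20.7 and 16.1 FPKM with Hdc at 7.03 and 10.4 FPKM, and those named 26 and R had Mcpt8 at 6.74 and 6.71 FPKM with Hdc at 33.3 and 41.5 FPKM.

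**Figure D3:**
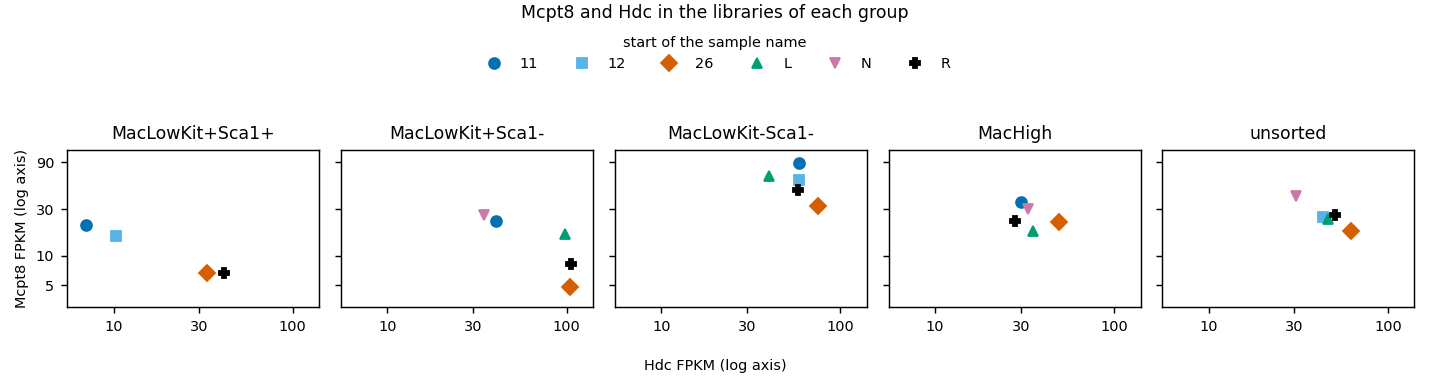
Mcpt8 FPKM against Hdc FPKM (both log axes) in the libraries of each group, with symbols for the start of the sample name. In MacLowKit+Sca1+ and MacLowKit+Sca1- the libraries with the highest Hdc have the lowest Mcpt8, such as the MacLowKit+Sca1- library named 26 at 4.79 FPKM of Mcpt8 and 104 FPKM of Hdc.

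The gamma chain of the IgE receptor was lower in both Kit+ groups than in Kit-Sca1-, as Mcpt8, Prss34, Cpa3 and Ms4a2 were. Unlike them it was highest in MacHigh. Fcer1g, its gene, averaged 232 ± 43.7 FPKM in Kit+Sca1+, 443 ± 173 FPKM in Kit+Sca1-, 647 ± 102 FPKM in Kit-Sca1-, 1040 ± 117 FPKM in MacHigh and 641 ± 72.8 FPKM in unsorted cells. It was lower in Kit-Sca1- than in MacHigh (-0.69 ± 0.19, limma adjusted p = 0.00385), where Ms4a2 was higher. Both Kit+ groups were lower than Kit-Sca1- for it (-1.48 ± 0.20, adjusted p = 2.25e-06 in Kit+Sca1+, and -0.61 ± 0.19, 0.00905 in Kit+Sca1-). Its level exceeded that of either other chain in every group. Of 15 genes of receptor signalling, Fcer1g included, Kit-Sca1- cells had 12 lower than MacHigh cells did, and the other 3 were not called. Among the 12 were the kinase Lyn (107 FPKM in Kit-Sca1- and 214 FPKM in MacHigh, 5.33e-07) and the phosphatase Ptpn6 (-0.25, 0.0462), and the median over the list was -0.56 beside -0.02 over all rows. In Kit+Sca1+ against Kit-Sca1- 4 were higher and 3 lower, and in Kit+Sca1- against Kit-Sca1- 4 were higher and 6 lower. Counts of this and the next lists stand beside the shares of all rows, which were 24.5% higher and 26.2% lower in Kit-Sca1- against MacHigh, 21.8% and 23.3% in Kit+Sca1+ against Kit-Sca1-, and 24% and 26.3% in Kit+Sca1- against Kit-Sca1-. The 4 and 3 of 15 in Kit+Sca1+ are near those shares.

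Cytokine receptors of the lineages were also spread over the groups. Il3ra, the interleukin-3 receptor alpha chain, averaged 11.5 ± 2.18 FPKM in Kit+Sca1+, 11.2 ± 1.44 FPKM in Kit+Sca1-, 19.4 ± 1.92 FPKM in Kit-Sca1-, 17.6 ± 2.17 FPKM in MacHigh and 14.4 ± 1.22 FPKM in unsorted cells. It was lower than in Kit-Sca1- in both Kit+ groups (-0.71 and -0.75, limma adjusted p = 2.25e-05 and 4.77e-06), and Kit-Sca1- and MacHigh did not differ beyond their spread (0.14, 0.301). Il1rl1, the interleukin-33 receptor of mast cells and basophils, averaged 0.509 ± 0.208 FPKM in Kit+Sca1+, 0.517 ± 0.239 FPKM in Kit+Sca1-, 2.23 ± 0.972 FPKM in Kit-Sca1-, 6.61 ± 2.93 FPKM in MacHigh and 4.17 ± 1.71 FPKM in unsorted cells. It was lower in Kit-Sca1- than in MacHigh (-1.20, adjusted p = 0.00022). Kit, a sort marker, averaged 34.3 ± 7.05 FPKM in Kit+Sca1+, 39.8 ± 8.44 FPKM in Kit+Sca1-, 0.668 ± 0.158 FPKM in Kit-Sca1-, 5.79 ± 0.844 FPKM in MacHigh and 10.7 ± 1.75 FPKM in unsorted cells, so that the groups with the most Kit had the least Prss34. Of 9 receptors 1 was higher (Il18r1, named after its value was seen) and 5 lower in Kit-Sca1- than in MacHigh, and 1 was higher and 4 lower in each Kit+ group than in Kit-Sca1-. The 1 higher in each Kit+ group was Kit itself, which the sort fixed in advance. Csf2rb, the beta chain that the interleukin-3 receptor shares with the GM-CSF receptor, averaged 87.0 ± 9.71 FPKM in Kit-Sca1- and 104 ± 7.33 FPKM in MacHigh (-0.27, 0.014). Crlf2 was lower in all 3 Mac-low groups than in MacHigh (adjusted p up to 0.00104), and Il18rap was not called between any sorted groups.

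Gata2 was the 1 of 11 lineage transcription factors called higher in Kit-Sca1- than in MacHigh (1.56 ± 0.29, limma adjusted p = 0.00011). It was 10.5, 5.87, 3.11 and 2.49 FPKM in Kit+Sca1+ and 2.56, 1.51, 3.20, 2.75 and 2.01 in Kit+Sca1-. It was 23.0, 16.1, 15.4, 12.1 and 10.6 in Kit-Sca1-, 5.56, 5.82, 2.87, 5.54 and 3.14 in MacHigh, and 11.5, 9.08, 8.42, 19.4 and 8.06 in unsorted cells. The lowest Kit-Sca1- library was just above the highest Kit+Sca1+ library and above all MacHigh and Kit+Sca1- libraries. Both Kit+ groups were lower than Kit-Sca1- (-1.46 ± 0.30, adjusted p = 0.000438, and -2.25 ± 0.29, 9.37e-07). Gata1, which is shared with red cells and megakaryocytes, was 0.077 to 2.96 FPKM over the sorted libraries and 9.90 to 39.5 FPKM in unsorted cells. Irf8, which in the mouse acts in basophil and mast cell progenitors as well as in monocytes and dendritic cells, averaged 648 ± 142 FPKM in Kit+Sca1+, 73.0 ± 53.4 FPKM in Kit+Sca1-, 225 ± 42.0 FPKM in Kit-Sca1-, 214 ± 39.6 FPKM in MacHigh and 185 ± 32.2 FPKM in unsorted cells. Cebpa, a granulocyte factor, averaged 44.1 ± 9.96 FPKM in Kit+Sca1+, 75.1 ± 19.2 FPKM in Kit+Sca1-, 62.0 ± 3.41 FPKM in Kit-Sca1-, 75.6 ± 4.96 FPKM in MacHigh and 54.2 ± 5.12 FPKM in unsorted cells. Of the 11 factors Kit-Sca1- cells had 2 lower than MacHigh cells did, 2 were higher and 4 lower in Kit+Sca1+ than in Kit-Sca1-, and 2 were higher and 5 lower in Kit+Sca1- than in Kit-Sca1-. In Kit-Sca1- against MacHigh both counts, 1 and 2 of 11, are smaller shares than those of all rows. Ikzf1 was among the genes higher in Kit+Sca1- than in Kit-Sca1- (0.30, 0.0405).

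**Figure D4:**
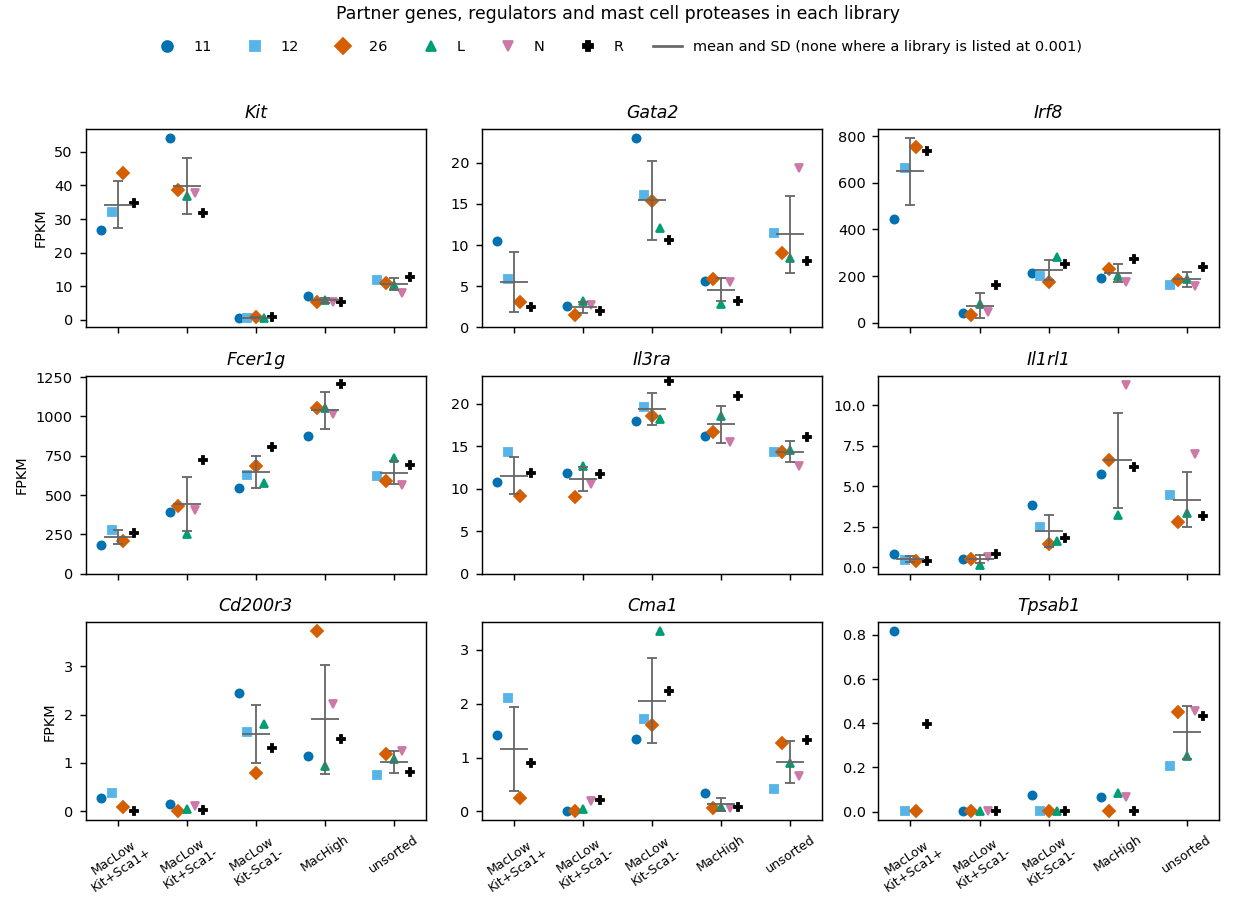
FPKM of 9 other genes of the lineages in each library, by group, with bars for mean and SD where no library is listed at 0.001. Kit falls under 1 FPKM in MacLowKit-Sca1-, where Gata2 has its highest mean of 15.5 FPKM, and Fcer1g and Il1rl1 have their highest means in MacHigh.

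Other surface and granule markers of basophils and mast cells differed among themselves in where they were high. Cd200r3, a receptor of basophils and mast cells, was 0.268, 0.374, 0.094 and 0.001 FPKM in Kit+Sca1+, 0.146, 0.001, 0.059, 0.106 and 0.034 in Kit+Sca1-. It was 2.45, 1.65, 0.801, 1.80 and 1.30 in Kit-Sca1- and 1.15, 3.72, 0.942, 2.22 and 1.49 in MacHigh, and the ranges of these last groups overlapped. It did not differ beyond the spread between Kit-Sca1- and MacHigh (-0.12 ± 0.19, limma adjusted p = 0.631). Itga2, the integrin CD49b of mouse basophils, failed the filter and ran from 0.546 to 1.05 FPKM in Kit-Sca1- and no higher than 0.394 FPKM elsewhere. Of the mast cell tryptases, Tpsb2 ran from 0.063 to 0.601 FPKM in Kit+Sca1+, was listed at 0.001 in every Kit+Sca1- and Kit-Sca1- library and in 3 of 5 MacHigh libraries, and had values in 4 of 5 unsorted libraries, up to 0.500 FPKM. Tpsab1 was listed at 0.001 in 2 of 4 Kit+Sca1+, 5 of 5 Kit+Sca1-, 4 of 5 Kit-Sca1- and 2 of 5 MacHigh libraries, and ran from 0.207 to 0.454 FPKM in unsorted cells. The chymase Mcpt4 ran from 0.071 to 0.629 FPKM in Kit+Sca1+, was listed at 0.001 in all Kit-Sca1- libraries and in 3 of 5 of both Kit+Sca1- and MacHigh, and ran from 0.078 to 0.421 FPKM in unsorted cells. The chymase Cma1 averaged 1.16 ± 0.782 FPKM in Kit+Sca1+, 2.05 ± 0.791 FPKM in Kit-Sca1-, 0.130 ± 0.115 FPKM in MacHigh and 0.916 ± 0.389 FPKM in unsorted cells, and was higher in Kit-Sca1- than in MacHigh (1.40 ± 0.19, 4.43e-06). Of the 11 granule protease genes measured 3 passed the filter (Cma1, Gzmb and Ctsg), and all 3 were higher in Kit-Sca1- than in MacHigh, Gzmb by 2.08 (5.9e-05) and Ctsg by 2.69 (8.66e-08). In MacHigh Cma1 reached at most 0.336 FPKM and Gzmb 0.964 FPKM, so both passed the filter only through other groups. The count of 3 is therefore no support for a shared direction. Ctsg, cathepsin G of neutrophil precursors and mast cells, averaged 1584 FPKM in Kit+Sca1- and 603 FPKM in Kit-Sca1- (1.32, 0.00031), the opposite order to Mcpt8. Of 8 surface genes measured 4 passed it, of which 1 was lower in Kit-Sca1- than in MacHigh, Cd200r1 (-1.96, 2.8e-08). Of the others, Itgb7 was at -0.53 (0.12) and Cd63 at -0.29 (0.334), and with Cd200r3 they were not called.

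Of 13 genes of mediator synthesis and storage 8 passed the filter. In Kit-Sca1- against MacHigh 1 was higher, Slc18a2 (named after its value was seen), the vesicular monoamine transporter that loads histamine (0.37 ± 0.11, limma adjusted p = 0.0081), and 6 were lower, among them Alox5ap (-0.79, 0.000175) and Srgn, the granule proteoglycan core (-0.55, 0.0293). Slc18a2 and Hdc had the same order of means: Slc18a2 averaged 1.13 ± 0.229 FPKM in Kit+Sca1+, 2.26 ± 0.399 FPKM in Kit+Sca1-, 1.87 ± 0.353 FPKM in Kit-Sca1-, 1.22 ± 0.274 FPKM in MacHigh and 1.75 ± 0.304 FPKM in unsorted cells. It was lower in Kit+Sca1+ than in Kit+Sca1- (-0.61 ± 0.12, 0.000154). In Kit+Sca1+ against Kit-Sca1- 5 of the 8 were higher and 2 lower, and in Kit+Sca1- against Kit-Sca1- 3 were higher and 1 lower, including Alox5 (0.67, 0.0461).

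Markers of other blood cells moved between the same groups, and their part in the members' differences was not tested. Of the 7 neutrophil genes measured 3 were higher in Kit-Sca1- than in MacHigh, as the proteases were, and the other 4 were not called, with a median of 0.01. Retnlg, named with Mmp8 and Cxcr2 after their values were seen, averaged 1359 ± 508 FPKM in Kit-Sca1- and 359 ± 41.9 in MacHigh (1.84 ± 0.39, limma adjusted p = 0.000509), Mmp8 268 ± 97.9 in Kit-Sca1- and 79.3 ± 5.55 in MacHigh (1.66, 0.00234), and Cxcr2 50.1 ± 17.4 in Kit-Sca1- and 20.2 ± 3.27 in MacHigh (1.20, 0.000781). The summed level of the 7 ran from 2512 to 8333 FPKM in Kit+Sca1+, 6074 to 39424 FPKM in Kit+Sca1-, 4916 to 14850 FPKM in Kit-Sca1-, 6069 to 19393 FPKM in MacHigh and 11317 to 19150 FPKM in unsorted cells. The granule genes Camp (-0.60, 0.299) and Lcn2 (-0.10, 0.865) were not called in Kit-Sca1- against MacHigh, nor was Ngp (-0.33, 0.461), which was listed at 0.001 in every Kit+Sca1- library.

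Of 8 eosinophil genes tested Kit-Sca1- cells had 2 lower than MacHigh cells did, and the other 6 were not called. That count is near the share of all rows, 26.2% of which were called lower there. Prg2, the eosinophil major basic protein, averaged 13.3 ± 7.13 FPKM in Kit-Sca1- and 42.4 ± 25.5 in MacHigh (-1.59 ± 0.47, limma adjusted p = 0.00702). Epx, the eosinophil peroxidase, averaged 1.44 ± 0.870 FPKM in Kit-Sca1- and 3.47 ± 3.02 in MacHigh (-0.69, 0.243). The 9 eosinophil genes measured summed to 83.5 to 115 FPKM in Kit+Sca1+, 61.2 to 136 FPKM in Kit+Sca1-, 13.6 to 48.1 FPKM in Kit-Sca1-, 56.4 to 145 FPKM in MacHigh and 72.6 to 261 FPKM in unsorted cells. The 9 erythroid genes summed to 28.5 to 99.99 FPKM in Kit+Sca1+, 1.67 to 27.3 FPKM in Kit+Sca1-, 2.30 to 23.4 FPKM in Kit-Sca1-, 3.24 to 91.4 FPKM in MacHigh and 335 to 1953 FPKM in unsorted cells. The 7 megakaryocyte genes summed to 5.96 to 20.6 FPKM in Kit+Sca1+, 4.02 to 9.42 FPKM in Kit+Sca1-, 3.94 to 15.5 FPKM in Kit-Sca1-, 18.7 to 46.2 FPKM in MacHigh and 26.6 to 127 FPKM in unsorted cells, and 2 of 6 tested were lower in Kit-Sca1- cells than in MacHigh cells. No defining marker of these 3 lineages that was measured was listed at 0.001 in all Kit-Sca1- libraries.

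The rows most like each member were found by Pearson's r of log2(FPKM + 1) over the 24 libraries, among 10363 rows with a mean of 1 FPKM or more, and are given as a description. Nearest to Mcpt8 were D8Ertd82e (0.94), Gcsh (0.90), Gyk (0.90), Utp14a (0.89) and Plaa (0.88). Nearest to Prss34 were Oaf (0.95), Usp25 (0.95), Esyt1 (0.92), Naa20 (0.92) and Lgals1 (0.91), of which Lgals1 averaged 1255 FPKM in Kit-Sca1- and 356 FPKM in Kit+Sca1+. Cpa3 had the weakest matches, led by Nle1 and Nr0b2 (0.84 each) and by Slc29a2, Slc7a5 and Slc25a32 (0.83, 0.83 and 0.82). Ms4a2 was nearest to Eaf1 and Eif5 (0.91 each), Psmc6, Nup54 and Ddx39 (0.89 each). Hdc was nearest to Ly6c2 (0.92), Pgd (0.90), Znhit1 (0.89), Glrx (0.88) and Amdhd2 (0.86), and Ly6c2, a surface protein of monocytes and granulocyte progenitors, averaged 1159 FPKM in Kit+Sca1- and 387 FPKM in Kit+Sca1+, the groups at the 2 ends of the Hdc order.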

How the data were processed

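RNA of sorted and unsorted spleen leukaemia cells was sequenced on an Illumina instrument, and 24 libraries were placed in 5 groups by their labels. The authors deposited FPKM values per gene in 1 table. TopHat2 2.0.4, Cuffdiff and the mm10 build are named per the submitters' processing notes, and the annotation, the scaling between libraries and the read counts are not given in the sources used here. A value of 0.001 in the deposited FPKM table was taken to stand for 0, and sequencing depth is unknown, so no counting interval is given. FPKM rests on the assigned transcript length and on a scaling of the library. If that scaling used the library total alone, a very abundant gene would lower all others, and this was not tested.

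Values were analysed as log2(FPKM + 1) with limma 3.58.1 (R 4.3.3, trended prior), in 1 fit of all 24 libraries, on rows that reached 1 FPKM in 4 or more libraries. Adjusted p-values are Benjamini-Hochberg over the 11599 rows kept, with calls under 0.05, for 10 group comparisons and an F test of the 4 sorted groups. Single values were also tested by exact two-sided permutation over libraries. The script was tested on simulated data. Tables and figures used Python 3.11.15 and matplotlib 3.10.9.

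The members and 10 further lists (IgE receptor signalling, cytokine receptors, transcription factors, granule proteases, mediators, surface molecules, and eosinophil, erythroid, megakaryocyte and neutrophil markers) were chosen with earlier results of these data known. Named were the members, the 5 rows most like each member (microRNA, snoRNA and predicted symbols left out), the most abundant genes of each list and a set of lineage genes. Retnlg, Mmp8, Cxcr2, Il18r1 and Slc18a2 fell outside this and were named after their values were seen. Mcpt10, Ptgdr2 and Ly6g were not analysed here. Promoters are RefSeq sequences of GRCm38.p6.

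The start of the sample name was checked as a pairing. Libraries with the same start deviated together from their group means (correlation over 0.1) in 34 of 38 pairs, and in all pairs of 7 of the 10 comparisons, where it was taken to pair the libraries. Even there the main standard errors, p-values and calls came from the fit without a block, which leaves this pairing out. Fits with the block are given as alternatives. Alternatives were another pseudocount, other filters, 3 other scalings, only the groups compared, library weights, blocks, the permutation test and leaving out each library.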

Additional observations from a re-analysis of the deposited data

How the results depend on the processing

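Of the 27 member differences called, 22 kept their call under every alternative that gave a value, and no called difference changed sign in these. Ms4a2, with 6 of the 22, did not pass the filter of 5 FPKM. Besides the left-out libraries given above, Mcpt8 in Kit+Sca1+ against MacHigh lost its call with equal FPKM sums (adjusted p = 0.0676), leaving 1 member called there in place of 2. Hdc in Kit+Sca1- against MacHigh lost it without a filter (0.0503), with library weights (0.101) and in the exact permutation test (p = 0.0556). Ms4a2 in Kit+Sca1- against Kit-Sca1- lost it with a pseudocount of 0.1 (0.0543), without a filter (0.0524), with equal sums (0.0742), with quantile normalization (0.0861), with only the groups compared (0.109) and in the exact permutation test (p = 0.103). Hdc in Kit+Sca1+ against unsorted cells lost it with only the groups compared (0.0569).

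Counts of members called moved as follows. A filter of 5 FPKM left 1 in Kit+Sca1+ against Kit+Sca1- and 0 in MacHigh against unsorted, since fewer members were tested. MacHigh against unsorted (1) gave 2 with equal sums, only the groups compared, weights or permutation, and 3 with the replicate block by name start. Kit-Sca1- against unsorted (1) gave 3 with quantile normalization, only the groups compared, either replicate block or permutation, and 4 with weights. Its rows called were 1692, 4121 with weights, 3115 with the name-start block and 1114 without Kit-Sca1- replicate 4. Kit+Sca1- against unsorted (1) gave 2 with either block. With 1 library left out, the counts ran from 1 to 2 in Kit+Sca1+ against MacHigh and from 1 to 3 in Kit-Sca1- and in Kit+Sca1- against unsorted. The cause of these shifts was not tested. The replicate number in the titles paired no comparison in full (22 of 46 pairs over 0.1), and its block is a check only. Name starts did not pair all libraries in 3 comparisons, in which the block called Hdc in Kit+Sca1+ against MacHigh (-0.96, 0.0206), Mcpt8 in Kit+Sca1- against MacHigh (-0.85, 0.0016) and Mcpt8 in Kit+Sca1- against unsorted (-1.01, 0.000757). The blocks changed no other call than these and those given above, except Ms4a2 in Kit-Sca1- against unsorted (0.75, 0.0497) under the title number.

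Differences near 0 changed sign in 7 cases of 540 and, with a library left out, in 15 of 480. Ms4a2 in Kit+Sca1- against unsorted went to 0.10 with equal sums, 0.33 with quantile normalization and 0.067 with weights. Cpa3 in Kit+Sca1+ against Kit+Sca1- went to -0.29 with quantile normalization, Hdc in Kit+Sca1- against Kit-Sca1- to -0.069 with weights, and Prss34 in Kit+Sca1+ against Kit+Sca1- to 0.10 and 0.000767 with the blocks by name start and title number. With a library left out, the ranges were -0.10 to 0.081 for Ms4a2 in Kit+Sca1- against unsorted, -0.17 to 0.11 for Mcpt8 in MacHigh against unsorted, -0.11 to 0.29 for Cpa3 in Kit+Sca1- against MacHigh, -0.015 to 0.48 for Cpa3 in Kit+Sca1+ against MacHigh, -0.078 to 0.42 for Cpa3 and -0.11 to 0.059 for Prss34 in Kit+Sca1+ against Kit+Sca1-. Equal FPKM sums shifted the median of all rows by 0.289 in Kit+Sca1- against MacHigh and by -0.193 to 0.196 elsewhere, and the share of calls that were higher to 71.8% from 51.7% there and to 9.15% from 38.9% in Kit-Sca1- against unsorted. Read depth could not be checked, and low members such as Fcer1a rest on few reads by their FPKM.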

Other observations

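The genes beside Mcpt8 and Ms4a2 on the chromosome had other orders of group means than these members, and Prss28 beside Prss34 had its highest mean in the same group. Ctsg, 14.4 kb from Mcpt8, averaged 604 FPKM in Kit+Sca1+, 1584 FPKM in Kit+Sca1-, 603 FPKM in Kit-Sca1-, 94.3 FPKM in MacHigh and 458 FPKM in unsorted cells, so its highest mean fell where Mcpt8 was low. Mcpt4, on the other side at 19.9 kb, was listed at 0.001 in all Kit-Sca1- libraries. Ms4a2 lies between Ms4a6d (10.7 kb) and Ms4a3 (5.7 kb), a pair of the same gene family with opposite orders of means over the 4 sorted groups. Ms4a3, a gene of granulocyte and monocyte progenitors, averaged 328 FPKM in Kit+Sca1+, 1049 FPKM in Kit+Sca1-, 224 FPKM in Kit-Sca1-, 71.4 FPKM in MacHigh and 238 FPKM in unsorted cells. Ms4a6d averaged 8.28 FPKM in Kit+Sca1+, 1.50 FPKM in Kit+Sca1-, 25.5 FPKM in Kit-Sca1-, 142 FPKM in MacHigh and 50.9 FPKM in unsorted cells. Ms4a2 matched neither, with means from 0.838 FPKM in Kit+Sca1+ to 8.32 FPKM in Kit-Sca1-. Prss28, a serine protease gene 8.5 kb from Prss34, was listed at 0.001 in all Kit+ libraries and averaged 0.236 FPKM in Kit-Sca1-, 0.0446 FPKM in MacHigh and 0.0333 FPKM in unsorted cells, so it was highest in Kit-Sca1- and lowest in Kit+ cells, as Prss34 was. These values are descriptions, and no test was run on them.

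The ratio of Mcpt8 to Hdc FPKM had a median of 0.876 for Kit+Sca1+, 0.172 for Kit+Sca1-, 1.01 for Kit-Sca1-, 0.806 for MacHigh and 0.518 for unsorted cells. Within Kit+Sca1+ it ran from 0.162 to 2.95, a wider span than that of the medians.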
